A study of Homo sapiens with 6 samples.

Results

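The 9 genes described here encode parts of the MHC class I antigen presentation pathway: HLA-B, HLA-C, HLA-E, HLA-F, B2M, TAP1, TAP2, TAPBP and NLRC5. They were taken by symbol from a table of read counts, on chromosomes 1 to 22, and all 9 were found among 58735 genes. All 9 also passed the filter on low counts, which left 17574 genes for testing. Between CNOT7 knockdown and control cells, 8 of the 9 genes did not pass the test, and HLA-B, a class I heavy chain gene, was 15.4% higher in knockdown (log2 fold change 0.21, SE 0.059, n = 3 libraries in each group). In the same libraries HLA-DRA, HLA-DPA1, CD74, HLA-DQB1 and CIITA, genes of the class II pathway, rose, and their estimates were larger than that of any of the 9.

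The study concerned CNOT7, a deadenylase of the CCR4-NOT complex that shortens the poly(A) tail of mRNA, and radiation resistance in colorectal cancer. RNA-seq was run on SW480, an established human colorectal cancer cell line, as named by the labels. The paper names HCT116, another colorectal cancer line, for its RNA-seq experiment, and the comparison between groups does not depend on that name. There were 3 control libraries and 3 libraries from cells with stable knockdown of CNOT7 by shRNA, from cells that the labels give as untreated, so neither group was irradiated. The control was labelled as the CNOT7 control and is not described further, and which shRNA each knockdown library carried is not stated. No source says that the 3 libraries of a group came from separate cultures, so p-values measure the spread between these libraries, which may be technical.

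Total counts ranged from 23788451 to 25982493 in control and from 27523812 to 29104872 in knockdown libraries. CNOT7 had 4346, 4445 and 4405 reads in the control libraries and 1222, 1303 and 1150 reads in the knockdown libraries, so the target was low in every knockdown library. The log2 fold change of CNOT7 was -2.05 (SE 0.073, edgeR quasi-likelihood test, Benjamini-Hochberg adjusted p = 2.64e-12). Of 17574 genes tested, 4424 differed between the groups at an adjusted p under 0.05, which is 25.2%, with 13.3% higher and 11.9% lower in knockdown. The median log2 fold change over all genes tested was 0.004. The colorectal epithelial markers KRT8, KRT18, KRT19 and EPCAM had control means of 2750, 2025, 720.2 and 212 CPM (TMM-normalized counts scaled to library size), and CEACAM5, a further marker on that list, had no read in any control library.

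Class I molecules show peptides from inside the cell to CD8+ T cells and to natural killer cells. A heavy chain (HLA-B, HLA-C and, in the non-classical group, HLA-E and HLA-F) pairs with the light chain beta-2 microglobulin, encoded by B2M. Proteasomes cut cytosolic proteins into peptides, the TAP1 and TAP2 heterodimer pumps the peptides into the endoplasmic reticulum, and tapasin, encoded by TAPBP, holds an empty class I molecule at the transporter until a peptide is bound. NLRC5 is a transcriptional coactivator of the class I genes, as CIITA is of the class II genes. Both are recruited by factors that sit on a conserved promoter module, whose Y box is bound by the NF-Y complex. Interferons raise class I transcription further through the interferon regulatory factors (IRFs), and colorectal tumours are known to lose class I at times, among others through mutation of B2M.

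The promoter letters that these factors read are shown because they are what the class I genes share and what part of the class II genes share with them. Promoters came from RefSeq (GRCh38.p14), covered 250 bases before to 50 bases after each gene start, and were present for 7 of the 9 genes, HLA-E and NLRC5 being the other two. The IRF core (letters AANNGAAA, searched on both strands) stood in 7 of 7 promoters, against 22.8% of 35116 promoters. Capitals mark the core in the windows that follow, each read 5′ to 3′ along the gene's own strand, so that the core can appear as its reverse complement.
HLA-B, chr6:31357316-31357345, minus strand: actcccctgagTTTCACTTcttctcccaac
HLA-C, chr6:31272225-31272254, minus strand: actcccctgagTTTCACTTctcccaacctg
HLA-F, chr6:29723267-29723296, plus strand: tctccccagagTTTCTCTTtctctcccaac
B2M, chr15:44711370-44711399, plus strand: taagaaaaggaAACTGAAAacgggaaagtc
TAP1, chr6:32853820-32853849, minus strand: caggcggccgcTTTCGATTtcgctttcccc
TAP2, chr6:32838783-32838812, minus strand: cttggctggggAAGCGAAAgcgaaagctgc
The longer interferon response core (GAAA, any 2 bases, then GAAA again, on both strands), every match of which holds the IRF core, was present in 5 of 7 promoters (B2M, HLA-F, TAP1, TAP2 and TAPBP) against 3.57% of all promoters. HLA-B and HLA-C carried only the shorter core in this window. Among 11 promoters of the class II list, 3 held the IRF core and 0 the longer core. The NF-κB consensus, searched on both strands, was present in 5 of 7 class I and 2 of 11 class II promoters, against 11.3% of all.

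The Y box (CTGATTGG, both strands) stood in 4 of 7 class I promoters and in 4 of 11 class II promoters, against 3.97% of all promoters. Capitals mark it in the windows of the 4 class I promoters and of HLA-DQB1, a class II gene, on the next lines.
HLA-B, chr6:31357217-31357246, minus strand: atctagagaagCCAATCAGcgtcgccgcgg
HLA-C, chr6:31272130-31272159, minus strand: ttctagagaagCCAATCAGcgtctccgcag
HLA-F, chr6:29723366-29723395, plus strand: ttctagagaagCCAATCAGtgtcgccgcag
B2M, chr15:44711454-44711483, plus strand: cgggccttgtcCTGATTGGctgggcacgcg
HLA-DQB1, chr6:32666730-32666759, minus strand: cagctccagtgCTGATTGGttcttttccga
The 3 heavy chain genes carried the box in the same orientation. Its first base was at position -56 in HLA-B and HLA-C and at -57 in HLA-F, counted from the RefSeq gene start. By the annotation of the read counts, whose gene positions are given below, some genes start elsewhere. The printed windows of HLA-F, TAP1 and HLA-DQB1 lie inside those genes by that annotation. In B2M the box read in the other orientation and began at -52. The orientation in HLA-DQB1 was that of B2M, with the first base at -91. A match of letters is a description and was not tested as a binding site.

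Within control cells the 9 genes covered a wide range of levels, given as RPKM (library-scaled reads per kilobase of all annotated exons). The order depends on that length, which was 6079 bases for B2M and 2507 for HLA-C. In CPM, B2M had a control mean of 355.6 and HLA-C one of 254.6, the reverse of their order in RPKM. HLA-C was highest at 101.5 ± 8.84 RPKM (SD, n = 3), B2M followed at 58.5 RPKM, HLA-B stood at 42.7 RPKM and HLA-E at 38.5 RPKM. TAPBP was at 26.9 RPKM, TAP1 at 10.1 RPKM and TAP2 at 8.02 RPKM. HLA-F, at 1.52 ± 0.27 RPKM, and the coactivator NLRC5, at 0.69 RPKM, were the lowest. By RPKM, HLA-C stood at percentile 98.5 of all genes tested and NLRC5 at percentile 22.2. Of the 8 neighbouring pairs in this order, HLA-B and HLA-E overlapped between libraries in control (lowest HLA-B library 39.99, highest HLA-E library 40.6 RPKM) and the other 7 did not. In knockdown the lowest HLA-B library (46.9 RPKM) was above the highest HLA-E library (44.8 RPKM). These levels count reads that aligned to the reference, and the alleles that the cell line carries were not examined.

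**Figure D1:**
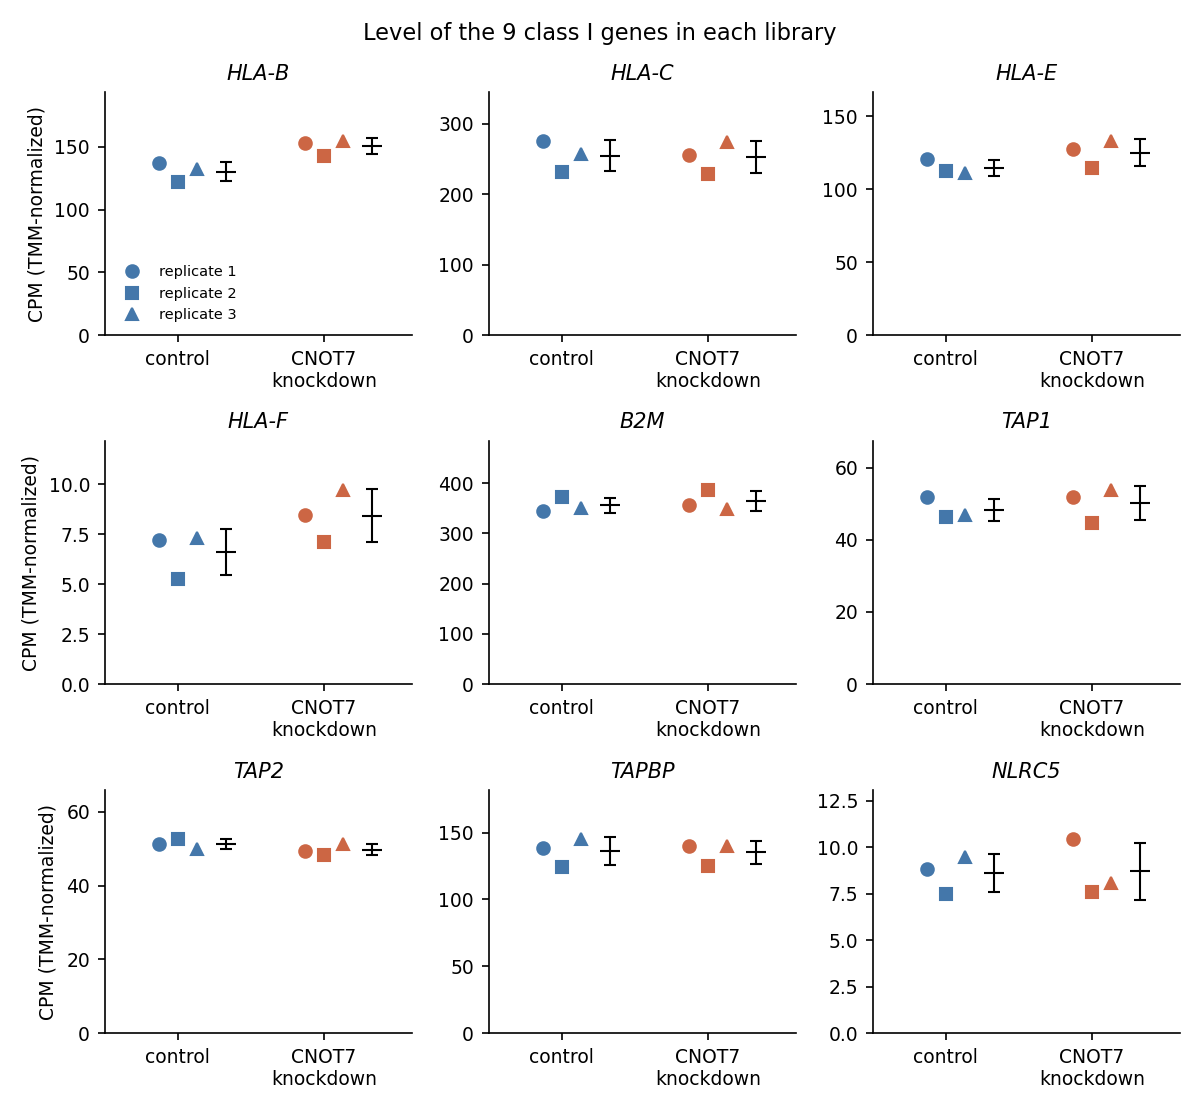
Level of each of the 9 class I pathway genes (TMM-normalized CPM, linear axis from 0) in the 3 control and 3 CNOT7 knockdown libraries. Points are single libraries, with one symbol per replicate number, and bars give the mean ± SD. The HLA-B knockdown points, 143 to 155 CPM, all lie above the control points, 122 to 137 CPM, while the groups overlap for the other 8 genes.

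The plot of levels by library sets out the knockdown comparison gene by gene. One of the 9 genes, or 1 of the 9 against 25.2% of all genes tested, was called at an adjusted p under 0.05, and it was higher. No class I gene was called lower. Groups that did not overlap were found for the same 1 gene, against 38.8% of all genes (20.6% higher and 18.2% lower in knockdown). The log2 fold changes ran from -0.04 to 0.35 with a median of 0.03, against 0.004 over all genes, and 6 of 9 were above 0. Nothing particular to these genes is read from these counts.

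HLA-B, a classical heavy chain gene (ENSG00000234745, chr6:31269491-31357188, minus strand, GRCh38), measured 137, 122 and 132 CPM in control replicates 1 to 3 and 154, 143 and 155 CPM in knockdown replicates 1 to 3. Every knockdown library was above every control library, and replicate 2 was the lowest of each group. The means were 130.4 ± 7.65 CPM and 150.6 ± 6.49 CPM (SD, n = 3 each), and the log2 fold change was 0.21 (SE 0.059, 95% interval 0.08 to 0.33, edgeR quasi-likelihood test, adjusted p = 0.0159). Leaving out 1 library ended the call in 4 of 6 cases, with adjusted p = 0.0676 without control replicate 2, 0.0563 without control replicate 3, 0.106 without knockdown replicate 1 and 0.0603 without knockdown replicate 3 in the same edgeR test. The log2 fold change stayed between 0.16 and 0.24 in these 6 fits. Of the exonic bases of HLA-B in the annotation, 17.8% overlap exons of AL671883.2 on the opposite strand, a gene that did not pass the filter. The library kit does not mark strand, so reads from these bases cannot be assigned to one of the pair.

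HLA-C, the other classical heavy chain gene on the list (ENSG00000204525, chr6:31268749-31272130, minus strand), measured 276, 232 and 256 CPM in control and 256, 228 and 273 CPM in knockdown. The groups overlapped, and replicate 2 was again the lowest of both. Its log2 fold change was -0.01 (SE 0.070, 95% interval -0.16 to 0.14, edgeR adjusted p = 0.929). The sign turned to 0.05 when libraries were scaled by cyclic loess, to 0.05 without control replicate 1 and to 0.06 without knockdown replicate 2.

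HLA-B and HLA-C are close neighbours in sequence and position, and their ratio within a library does not depend on how libraries are scaled. There were 0.50, 0.53 and 0.52 reads of HLA-B per read of HLA-C in the control libraries and 0.60, 0.63 and 0.57 in the knockdown libraries. All 3 knockdown ratios were above all 3 control ratios, with a log2 difference of 0.22 (exact two-sided permutation test, p = 0.1, the smallest that 3 against 3 libraries allow). This ratio was chosen after the values had been seen, out of 36 pairs of the class I genes. In 11 of the 36 the groups did not overlap, 4 of them with HLA-B, 4 with HLA-E and 3 with HLA-F. Among single genes, the groups did not overlap for 38.8% of all genes tested. The share over pairs of other genes is not given, and the 36 pairs reuse the same genes, so they are not independent. Nothing particular to the heavy chain genes is therefore read from this count of pairs. In the annotation the exons of HLA-B and HLA-C share 35 bases, which is 1.4% of the exonic bases of HLA-C.

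HLA-E presents signal peptides of other class I molecules to the NKG2A receptor of natural killer cells. The gene (ENSG00000204592, chr6:30489467-30494205, plus strand) measured 121, 112 and 111 CPM in control and 127, 115 and 133 CPM in knockdown. Only knockdown replicate 2 fell within the control range. The log2 fold change was 0.13 (SE 0.063, 95% interval -0.01 to 0.26, edgeR adjusted p = 0.163), and it passed the threshold without knockdown replicate 2 (0.18, edgeR adjusted p = 0.0233).

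HLA-F, a non-classical heavy chain gene with low levels (ENSG00000204642, chr6:29722775-29738528, plus strand), measured 7.24, 5.29 and 7.34 CPM in control and 8.48, 7.1 and 9.74 CPM in knockdown. Knockdown replicate 2 lay below 2 of the control libraries and the other two knockdown libraries lay above all of them. The log2 fold change was 0.35 (SE 0.145, 95% interval 0.04 to 0.65, edgeR adjusted p = 0.091). It was the largest estimate of the 9 and did not pass the threshold with all 6 libraries, and did so without knockdown replicate 2 (0.46, edgeR adjusted p = 0.0232). HLA-F also had the widest relative spread among control libraries, with a coefficient of variation of 17.5%, against 2.81% for TAP2, the narrowest. On the opposite strand, HLA-F-AS1 and other genes cover 28.5% of the exonic bases of HLA-F, and HLA-F-AS1 itself went from 5.43 to 7.04 CPM (log2 fold change 0.37, SE 0.125, edgeR adjusted p = 0.0368). Without strand, the reads of HLA-F and HLA-F-AS1 cannot be told apart over these bases.

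A further 20 class I heavy chain genes and pseudogenes were present in the table on these chromosomes, and 6 of them, 5 of these pseudogenes, passed the filter. Of the 6, 1 was higher and 0 were lower in knockdown, against 13.3% and 11.9% of all genes. The log2 fold changes of the 6 ran from 0.11 to 0.81. The highest was that of the pseudogene HLA-W, with 6, 5 and 13 reads in control and 19, 13 and 17 in knockdown. It passed the filter only through its knockdown reads, so its sign carries no weight. The pseudogene HLA-J, with 18, 7 and 13 reads in control and 5, 4 and 9 in knockdown, did not pass. Reads from close copies can be shared among these genes, so single values are uncertain.

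The light chain gene B2M (ENSG00000166710, chr15:44711487-44718877, plus strand) measured 344, 373 and 350.1 CPM in control and 356, 387 and 349 CPM in knockdown. Replicate 2 was the highest of each group, whereas it was the lowest of each group for HLA-B, HLA-C and HLA-F. The log2 fold change of B2M was 0.03 (SE 0.055, 95% interval -0.08 to 0.15, edgeR adjusted p = 0.714), and the interval reaches no further than 0.15 from 0. The HLA-C to B2M ratio differed by -0.04 on the log2 scale between the groups (exact two-sided permutation test, p = 0.7).

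Neither gene of the peptide transporter passed the test. TAP1 (ENSG00000168394, chr6:32845209-32853978, minus strand) measured 51.8, 46.2 and 47.0 CPM in control and 51.9, 44.7 and 53.9 CPM in knockdown, with a log2 fold change of 0.05 (SE 0.077, 95% interval -0.11 to 0.22, edgeR adjusted p = 0.666). TAP2 (ENSG00000204267, chr6:32821833-32838780, minus strand) measured 51.1, 52.7 and 49.8 CPM in control and 49.4, 48.3 and 51.3 CPM in knockdown, with a log2 fold change of -0.04 (SE 0.064, 95% interval -0.18 to 0.09, edgeR adjusted p = 0.67). The groups overlapped for both transporter genes. Per length, TAP1 was above TAP2 in every control library, with 9.62 to 10.8 RPKM for TAP1 and 7.8 to 8.25 RPKM for TAP2. The control means in CPM had the other order, 48.3 for TAP1 and 51.2 for TAP2. The log2 ratio of TAP1 to TAP2 differed by 0.10 between the groups (exact two-sided permutation test, p = 0.3). For TAP2, 32.3% of the exonic bases are shared with AL669918.1 on the same strand. How reads from these bases were assigned is not given, so the order of TAP1 and TAP2 per length is uncertain.

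TAPBP, which encodes the bridging chaperone tapasin (ENSG00000231925, chr6:33299694-33314387, minus strand), measured 138, 124 and 146 CPM in control and 140.3, 125 and 140.3 CPM in knockdown. The groups overlapped, and replicate 2 was the lowest of both. Its log2 fold change was -0.01 (SE 0.066, 95% interval -0.15 to 0.13, edgeR adjusted p = 0.936), and the sign turned to 0.04 with cyclic loess scaling.

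NLRC5, the class I coactivator (ENSG00000140853, chr16:56989485-57083531, plus strand), measured 8.83, 7.48 and 9.5 CPM in control and 10.5, 7.57 and 8.09 CPM in knockdown. The groups overlapped, with knockdown replicate 1 the highest of the 6 libraries and control replicate 2 the lowest. The log2 fold change was 0.02 (SE 0.135, 95% interval -0.27 to 0.30, edgeR adjusted p = 0.95), and this interval is wider than that of HLA-C or B2M, which have more reads. The sign of NLRC5 turned to -0.06 with cyclic loess scaling.

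**Figure D2:**
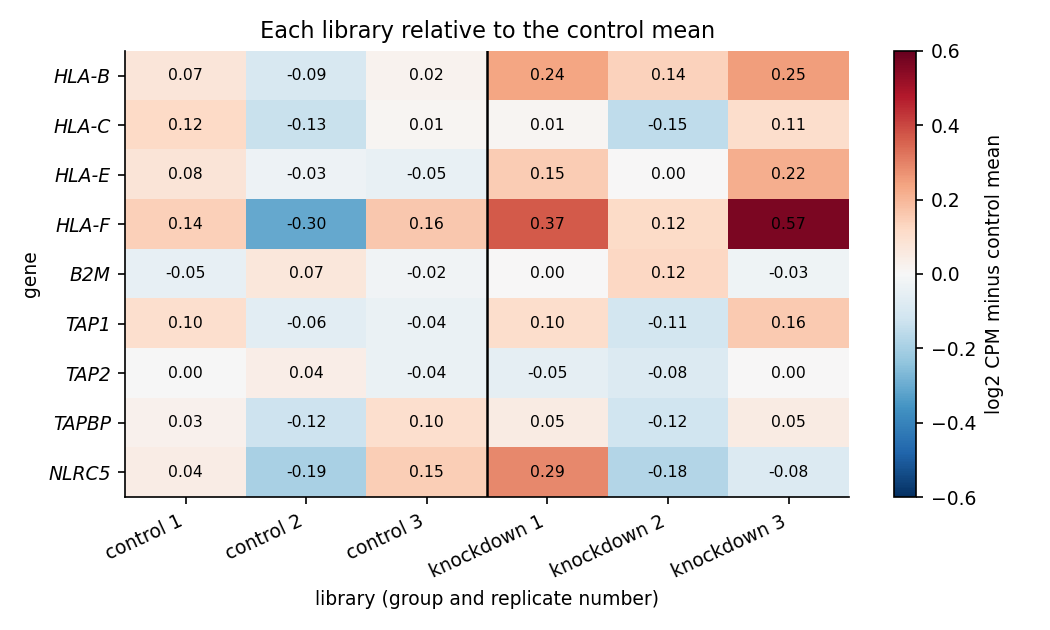
Heat map of the log2 CPM of each of the 9 genes (rows) in each library (columns) minus that gene's control mean, with the value printed in each cell. Red is above and blue below the control mean. Replicate 2 of each group is blue for most genes, HLA-B is red in all 3 knockdown columns, and HLA-F in knockdown replicate 3 has the highest value, 0.57.

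The heat map of levels relative to the control mean shows a pattern among libraries as well as between groups. Control replicate 2 was the lowest of its group for 6 of 9 genes and knockdown replicate 2 for 8 of 9. Knockdown replicate 3 was the highest of its group for 6 of 9. The median over the 9 genes was 0.07, -0.09 and 0.01 on the log2 scale in control replicates 1 to 3 and 0.10, -0.08 and 0.11 in knockdown replicates 1 to 3. The 2 libraries numbered 2 were both below the control mean although they belong to different groups, and within each group the libraries lay further apart than the median log2 fold change of 0.03 between groups. Whether the number 2 marks anything the libraries share is not given in the labels.

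Of the 9 genes, 7 lie in the MHC region of chromosome 6, from base 29722775 to base 33314387. In that stretch 139 genes were tested, of which 12 were higher and 12 lower in knockdown, against 13.3% and 11.9% of all genes. Their median log2 fold change was 0.005. Without the 7 members and the class II genes, 126 genes remained, with 8 higher, 12 lower and a median of -0.004.

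By the likeness of their pattern over the 6 libraries, 5 genes outside the lists came closest to the mean of the 9 genes: ARNTL2-AS1 (Pearson r 0.995), AHNAK2 (0.994), PBXIP1 (0.993), SPDYE1 (0.992) and ACADVL (0.989). None of the 5 passed the edgeR test between groups, with adjusted p from 0.219 to 0.632. These values follow the same rise and dip from library to library, and all the points share their libraries and depth.

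Of 8 other peptide-loading genes tested, 0 were higher and 1 was lower in knockdown, against 11.9% of all genes called lower, with a median log2 fold change of -0.001. SEC61A1, a subunit of the channel through which proteins enter the endoplasmic reticulum, measured 299, 301 and 296 CPM in control and 244, 248 and 256 CPM in knockdown. Its groups lay apart, with a log2 fold change of -0.26 (SE 0.049, edgeR adjusted p = 0.000822). The chaperones CANX and CALR, calnexin and calreticulin, had log2 fold changes of -0.04 and 0.04 (edgeR adjusted p = 0.679 and 0.64).

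Among 10 proteasome genes, 0 were higher and 3 were lower in knockdown, against 13.3% and 11.9% of all genes. Their median log2 fold change was -0.08. The activator subunit PSME3 went from 202 ± 4.0 CPM to 169 ± 7.49 CPM (SD, n = 3 each), a log2 fold change of -0.26 (SE 0.054, edgeR adjusted p = 0.00183). PSMB5, a catalytic subunit of the constitutive proteasome, went from 70.5 to 59.6 CPM (log2 fold change -0.24, edgeR adjusted p = 0.0345), and PSME2, a subunit of the interferon-inducible activator, from 91.4 to 78.9 CPM (-0.21, edgeR adjusted p = 0.045). Their control and knockdown libraries overlapped. The call of PSMB5 was lost without control replicate 1 or 3 or knockdown replicate 1 or 2 (edgeR adjusted p from 0.0789 to 0.16). That of PSME2 was lost without any one of the 6 libraries but knockdown replicate 3 (edgeR adjusted p from 0.0587 to 0.203). Cyclic loess scaling also ended both calls (edgeR adjusted p = 0.0875 for PSMB5 and 0.127 for PSME2), as a minimum of 10 counts in every library did for PSME2 (0.0522). PSMB8 and PSMB9, interferon-inducible catalytic subunits whose genes lie beside TAP1 and TAP2, had log2 fold changes of 0.04 and 0.02 (edgeR adjusted p = 0.779 and 0.875).

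No interferon ligand, receptor or kinase gene passed the test. Of 9 interferon ligand genes, 7 had no read in any library. IFNE, an epithelial type I interferon and the only ligand gene tested, had a log2 fold change of -0.17 (SE 0.385, edgeR adjusted p = 0.801) at a control mean of 0.49 CPM, and IFNL2 had 0.03 CPM in knockdown replicate 3 and none elsewhere. Of 9 receptor and kinase genes, 0 were called in either direction, against 25.2% of all genes, with a median log2 fold change of 0.03. The kinase JAK1 had a log2 fold change of 0.03 and the receptor chain IFNAR1 one of -0.12 (edgeR adjusted p = 0.774 and 0.21).

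Of 15 transcription factor genes that act at class I promoters, 0 were higher and 3 lower, against 13.3% and 11.9% of all genes. The median log2 fold change of the 15 was -0.12. IRF1, which binds the IRF core printed above, measured 47.7, 42.9 and 44.1 CPM in control and 38.4, 35.8 and 38.5 CPM in knockdown. No knockdown library of IRF1 reached the control range, and the log2 fold change was -0.26 (SE 0.070, edgeR adjusted p = 0.0125). The call was lost without control replicate 1 (edgeR adjusted p = 0.0754). ATF1, a factor of the CREB family, had a log2 fold change of -0.28 (SE 0.069, edgeR adjusted p = 0.00602). NFYC, a subunit of the NF-Y complex that binds the Y box, had one of -0.22 (SE 0.077, edgeR adjusted p = 0.0413), and its call was lost without any one library but knockdown replicate 2 (edgeR adjusted p from 0.0526 to 0.163) and with cyclic loess scaling (0.0669).

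The largest falls in the whole pathway were among 11 genes known to lower class I transcription or surface level. Of these, 4 were lower and 0 higher, against 11.9% and 13.3% of all genes, with a median log2 fold change of -0.15. MARCH4, a membrane ubiquitin ligase that can take class I from the cell surface, measured 24.1, 21.02 and 24.5 CPM in control and 6.07, 6.38 and 5.27 CPM in knockdown. The groups lay far apart, with a log2 fold change of -1.98 (SE 0.107, edgeR adjusted p = 7.68e-10). SOCS1, an inhibitor of JAK kinases, measured 2.72, 2.62 and 2.63 CPM in control and 0.92, 1.09 and 1.48 CPM in knockdown. Its log2 fold change was -1.19 (SE 0.222, edgeR adjusted p = 0.000776). SOCS3, a related inhibitor, went from 7.81 to 5.43 CPM (log2 fold change -0.52, SE 0.144, edgeR adjusted p = 0.0128), and its call was lost without control replicate 1 (edgeR adjusted p = 0.08). TMEM127, which takes part in the ubiquitin-dependent turnover of class I, went from 98.0 to 82.9 CPM (log2 fold change -0.24, SE 0.058, edgeR adjusted p = 0.0056). Protein and surface levels of class I were not measured in these libraries.

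**Figure D3:**
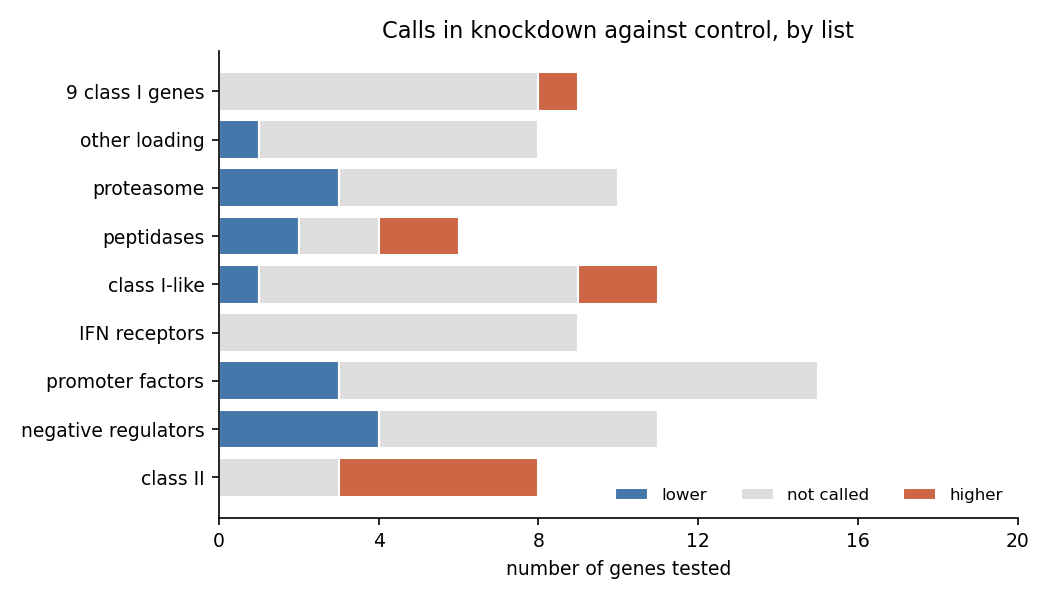
Number of genes tested in each list, split into those lower (blue), not called (grey) and higher (orange) in knockdown at an edgeR adjusted p under 0.05. Of the 9 class I pathway genes 1 was higher, 4 of 11 negative regulators were lower, and 5 of 8 class II genes were higher. Over all genes tested, 13.3% were higher and 11.9% lower. The interferon ligands, with 1 gene tested and none called, are not drawn.

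The bar chart of calls by list shows the class II list as the one with most higher calls. Class II molecules show peptides from endosomes to CD4+ T cells. Of 13 class II genes, 8 passed the filter, and 5 were higher and 0 lower in knockdown, against 13.3% and 11.9% of all genes. The median log2 fold change of the 8 was 0.89. The 5 that did not pass are not counted in this median.

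CIITA, the class II counterpart of NLRC5, measured 8.06, 6.75 and 7.14 CPM in control and 13.3, 11.8 and 14.2 CPM in knockdown. The groups lay apart, with a log2 fold change of 0.84 (SE 0.112, 95% interval 0.60 to 1.08, edgeR adjusted p = 3.11e-05), beside 0.02 for NLRC5. In each library the pair gave 0.91, 0.90 and 0.75 reads of CIITA per read of NLRC5 in control and 1.27, 1.56 and 1.75 in knockdown, as the plot of ratios shows. The log2 difference was 0.83 (exact two-sided permutation test, p = 0.1, the smallest possible), and the pair was chosen after the values had been seen. CD74, the invariant chain that guards the class II groove, measured 38.7, 36.4 and 38.1 CPM in control and 77.7, 69.0 and 73.5 CPM in knockdown, a log2 fold change of 0.96 (SE 0.067, edgeR adjusted p = 1.74e-08).

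Of the class II chain genes, 3 were called. HLA-DRA measured 0.78, 1.16 and 0.56 CPM in control and 5.14, 4.96 and 5.74 CPM in knockdown, with a log2 fold change of 2.67 (SE 0.218, edgeR adjusted p = 1.1e-07). HLA-DPA1 went from 0.5 to 1.97 CPM (log2 fold change 1.97, SE 0.341, edgeR adjusted p = 0.000384). HLA-DQB1, whose Y box is printed above, went from 11.1 to 21.4 CPM (log2 fold change 0.94, SE 0.101, edgeR adjusted p = 2.97e-06). HLA-DMA, HLA-DMB and HLA-DOB, chains of the molecules that edit class II peptide loading, had log2 fold changes of 0.15, 0.54 and 0.21 and were not called.

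**Figure D4:**
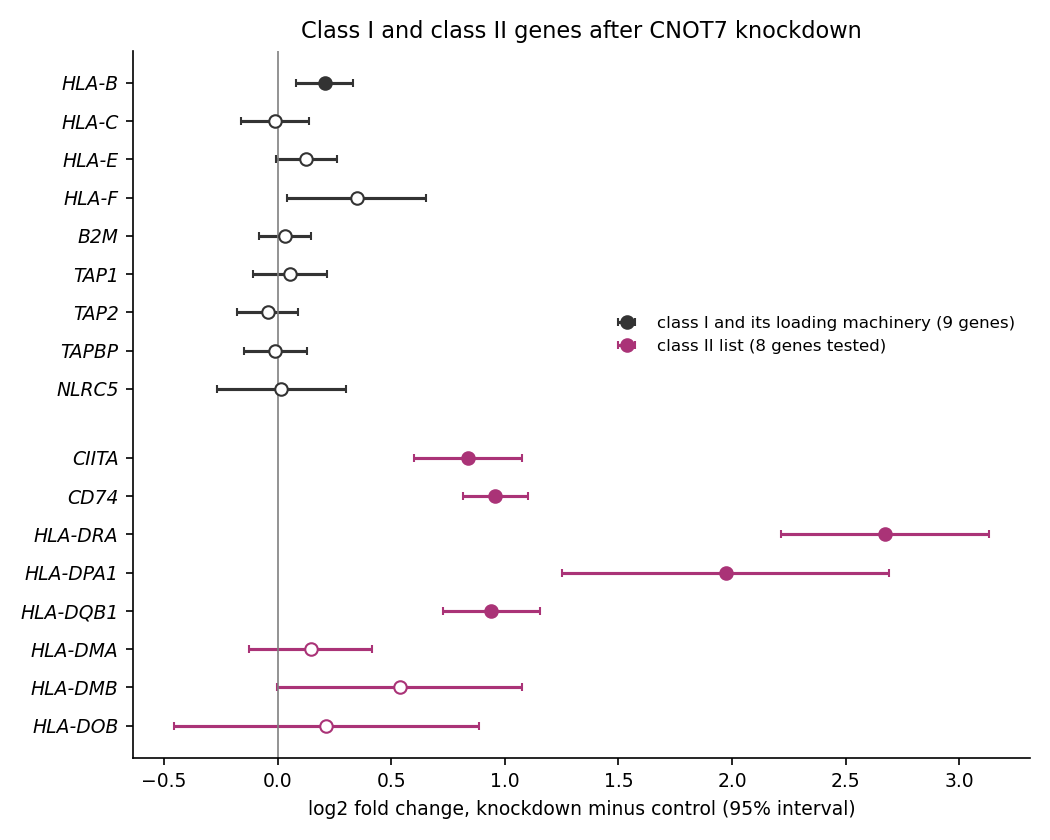
Log2 fold change (knockdown minus control) with its 95% interval for the 9 class I pathway genes (black) and the 8 class II genes tested (purple). Filled circles passed the threshold of an edgeR adjusted p under 0.05. The class I estimates lie between -0.04 and 0.35, and the 5 class II genes called lie between 0.84 and 2.67.

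The plot of class I and class II fold changes sets both pathways on one scale. In it the upper 95% bound of B2M, 0.15, and that of HLA-C, 0.14, lie below the lower bound of CD74, 0.82, and of CIITA, 0.60. The CD74 to B2M ratio within libraries was 0.113, 0.098 and 0.109 in control and 0.218, 0.178 and 0.211 in knockdown, without overlap. Markers of immune cells, some of which carry class II, moved with this result. Over 13 immune markers the summed level was 7.83 to 10.45 CPM in control and 12.9 to 14.9 CPM in knockdown libraries. Of the 5 tested, 3 were higher in knockdown, against 13.3% of all genes. CD4 (4.04 to 6.6 CPM) and ITGAM (0.97 to 1.83 CPM) were among the 3. PTPRC, the marker common to leukocytes, had no read in 5 libraries and 4 reads in knockdown replicate 3, and the T cell marker CD3D had none in control and 1, 1 and 4 reads in knockdown. Other markers of the list were not higher in knockdown: CD3E, also of T cells, had 13, 1 and 6 reads in control and 5, 14 and 4 in knockdown, and FCER1G, of myeloid cells, had 4, 2 and 5 against 1, 4 and 1. The B cell marker MS4A1 had 2 reads in control replicate 2 and none elsewhere, and TYROBP had 1 read in each group. Of 8 fibroblast and endothelial markers, 3 were tested and 0 called, against 25.2% of all genes. The sum of the 8 was 11.2 to 12.8 CPM in control and 13.0 to 14.6 CPM in knockdown. The part of other cells in the class II result was not tested.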

How the data were processed

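RNA-seq of 3 control and 3 CNOT7 knockdown libraries was analysed from the raw read counts per gene that the authors deposited, without normalization. The submitters' processing notes name CASAVA 1.8, fastp, HISAT2 2.0.5, featureCounts 1.5.0-p3 and DESeq2 1.20.0, with GRCh38. Strand and multi-mapping settings and read length are not given in the sources used here. Positions of 99.92% of the genes equal those of GENCODE release 29. The table's columns of other values were limited to gene annotation, and 0 sample columns were left unused.

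Counts were filtered with filterByExpr, scaled by TMM and tested with glmQLFit and glmQLFTest in edgeR 4.0.16 (R 4.3.3), knockdown against control, with Benjamini-Hochberg adjustment over 17574 genes. A gene was called at an adjusted p under 0.05, whatever its fold change. Each SE was taken from the log2 fold change and the F statistic (its size over the root of F). CPM are counts scaled by the TMM-normalized library size. RPKM values used the gene length in the table, which equals the union of exons. Ratios of counts were compared by exact two-sided permutation tests in scipy 1.17.1. The fit was tested on simulated data. Depth, 23788451 to 29104872 reads per library, and 3 libraries per group set the precision given by each SE. Counts of replicates differed by more than sampling alone, so no library copies another.

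The members and the gene lists (peptide loading, proteasome, cytosolic peptidases, class I-like genes, interferon ligands, receptors and kinases, promoter factors, negative regulators, class II genes and markers of epithelial, immune and stromal cells) were chosen with earlier results of these data known. The naming rule took all members, CNOT7, every list gene past the threshold, or, where fewer than 2 of a list passed, its 2 genes of highest mean CPM, and the 5 genes of most similar pattern. PSMB8, PSMB9, the HLA-DM and HLA-DO genes and HLA-F-AS1 were named outside this rule, after their values were seen. Of the 8 epithelial markers, 7 were tested, with 2 higher and 2 lower, against 13.3% and 11.9% of all genes. Alternatives were DESeq2 1.42.0, RLE factors, cyclic loess offsets (limma 3.58.1), no filter, at least 10 counts in every library, the replicate number as a block, and leaving out each library.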

Additional observations from a re-analysis of the deposited data

How the results depend on the processing

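CNOT7 and the class II genes CIITA, CD74, HLA-DRA and HLA-DQB1 were called in the same direction under all 12 alternatives, and HLA-DPA1 under the 11 that could test it. HLA-B was positive under all 12 and called in 8. With 1 library left out, the 9 class I genes gave 0 to 3 calls, all higher: 0 without control replicate 2, control replicate 3, knockdown replicate 1 or knockdown replicate 3, and 3 (HLA-B, HLA-E and HLA-F) without knockdown replicate 2. HLA-B then ranged from 0.16 to 0.24 (log2), HLA-E from 0.0736 to 0.184 and HLA-F from 0.21 to 0.46. Small estimates changed sign: HLA-C ranged from -0.077 to 0.0555, B2M from -0.0141 to 0.0671, TAP1 from -0.006 to 0.129, TAPBP from -0.0715 to 0.0426, NLRC5 from -0.147 to 0.104, CANX from -0.0992 to 0.0016, IFNE from -0.254 to 0.0105 and JAK1 from -0.0211 to 0.0697. With cyclic loess offsets, HLA-C was 0.0528, TAPBP 0.0448, NLRC5 -0.0581 and CANX 0.039, and without a filter NLRC5 was -0.0028. The cause was not tested. Genes called lower over the whole table numbered 1367 (without control replicate 3) to 2219, against 2095, and called lower in the other pathway lists 8 (without control replicate 1) to 15, against 14. All genes called numbered 3030 to 4542 with 1 library left out, against 4424.

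The values did not settle whether the replicate numbers pair the libraries. Same-numbered libraries had correlations of 0.023, 0.153 and -0.015 between their deviations from the group means. Control and knockdown replicate 2 correlated best with each other (0.153), and the libraries numbered 1 and 3 correlated best with another number. With the replicate number as a block, 6508 genes were called (3306 lower), 3 of the 9 class I genes (all 3 higher: HLA-B, HLA-E at 0.13, adjusted p = 0.0171, and HLA-F at 0.35, adjusted p = 0.0153, edgeR) and 39 other pathway genes (26 lower). Calls of named genes beyond the 9 were lost 39 times over all these alternatives, and IFNAR1 passed it under the block. The median over all genes stayed within 0.1 of 0 under each setting, and higher calls made up 46.0% to 54.9% of all calls. Depth limits HLA-F and NLRC5 most, the lowest of the 9.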

Other observations

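The class I-like list holds stress ligands seen by the NKG2D receptor of natural killer and T cells. It also holds MR1, HFE, FCGRT and CD1D, which are not among these ligands, and the counts cover the whole list. Of its 12 genes 11 were tested, and 2 were higher, 1 was lower and 8 did not pass, a share of calls near the 25.2% over all genes. The median log2 fold change was 0.26. ULBP1 measured 13.5, 13.4 and 11.1 CPM in control and 14.1, 16.9 and 16.1 CPM in knockdown, a log2 fold change of 0.31 (SE 0.106, edgeR adjusted p = 0.0408). ULBP3, a relative of ULBP1, measured 5.95, 6.58 and 6.07 CPM in control and 8.52, 9.1 and 7.25 CPM in knockdown, a log2 fold change of 0.42 (SE 0.124, edgeR adjusted p = 0.0192). MICA, a ligand of the same receptor that lies in the MHC region, measured 18.8, 17.8 and 16.6 CPM in control and 15.5, 13.8 and 14.2 CPM in knockdown, a log2 fold change of -0.29 (SE 0.091, edgeR adjusted p = 0.0266). The groups did not overlap for any of the 3 genes. By DESeq2, ULBP1 and ULBP3 were not called (adjusted p = 0.077 and 0.0536), nor with cyclic loess offsets in edgeR (adjusted p = 0.0754 and 0.0674). In edgeR the calls were lost without control replicate 3, knockdown replicate 2 or knockdown replicate 3 for ULBP1 (adjusted p from 0.0918 to 0.219), without control replicate 1 or 3 or knockdown replicate 1 or 2 for ULBP3 (0.0639 to 0.0784), and without control replicate 1, knockdown replicate 2 or knockdown replicate 3 for MICA (0.0596 to 0.112).

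Cytosolic peptidases, which trim or destroy peptides before they reach the transporter, were called in both directions, with 2 of 6 tested higher and 2 lower. Over all genes, 13.3% were higher and 11.9% lower. Bleomycin hydrolase, BLMH, went from 24.7 ± 2.17 to 33.9 ± 0.558 CPM (SD, n = 3 each), a log2 fold change of 0.46 (SE 0.078, edgeR adjusted p = 0.000345), and tripeptidyl peptidase TPP2 from 99.1 to 115 CPM (0.21, SE 0.063, edgeR adjusted p = 0.0219). THOP1, an oligopeptidase known to destroy peptides, went from 110.1 to 91.7 CPM (log2 fold change -0.26, SE 0.063, edgeR adjusted p = 0.00504), and nardilysin, NRDC, from 183 to 158 CPM (-0.21, SE 0.056, edgeR adjusted p = 0.0115). The call of TPP2 was lost without control replicate 1 or 3 or knockdown replicate 1 or 2 (edgeR adjusted p from 0.0594 to 0.116), and that of NRDC without knockdown replicate 1 (edgeR adjusted p = 0.0589).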
